A study of Mus musculus with 4 samples.

Results

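The guanylate-binding protein (Gbp) cluster on mouse chromosome 3 was described through the histone H4 acetylation (H4ac) peaks that overlap mm9 chr3:142140001-142310000, a window of 170 kb that holds Gbp2, Gbp3 and Gbp5. Of the 175801 peaks deposited for the series, 35 overlapped this window. LPS-treated HDAC3 KO had 13 of them, LPS-treated wt had 12, untreated HDAC3 KO had 3 and untreated wt had 7. The cells were bone marrow-derived macrophages, primary cells grown out of the marrow of C57BL/6 mice with L929-conditioned medium and used on day 7 of differentiation. They were HDAC3 -/- (HDAC3 KO) or HDAC3 +/-, a heterozygous genotype that the submitters call wild type (wt), and had been given 100 ng/ml lipopolysaccharide (LPS) for 4 h or left without treatment. Each combination of genotype and treatment was 1 library, so no spread between replicates exists, no difference given here has a replicate check and no p-value was computed. The sources used here do not say how HDAC3 was deleted or how many animals gave cells.

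Guanylate-binding proteins are large GTPases of the dynamin superfamily that interferons induce strongly in macrophages, where they gather on intracellular bacteria and on vacuoles that hold parasites. LPS reaches such genes partly through interferon beta, which macrophages secrete after Toll-like receptor 4 is engaged, and their promoters are textbook targets of interferon regulatory factors. Gbp2 coats parasite vacuoles and Gram-negative bacteria in mouse macrophages, Gbp5 has been linked to inflammasome activation, and Gbp3 belongs to the same cluster of anti-microbial GTPases. Acetylation of H4 is found at promoters and enhancers in use, and HDAC3 removes acetyl groups as the enzyme of corepressor complexes.

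RefSeq (GRCm38.p6) lists the Gbp genes of the cluster in the order Gbp5, Gbp7, Gbp3, Gbp2b and Gbp2, so that Gbp7 and Gbp2b stand between the 3 named genes. It also lists a long non-coding RNA gene, Gm40158, between Gbp3 and Gbp2b, whose upstream sequence is not described here. The peaks are on mm9 and were not carried to that build, so no peak below is assigned to a single gene or promoter. The label of the window rests on its rule and could not be checked against gene positions here. The sequences upstream of the Gbp genes are shown because these genes share an interferon-response motif there. Each is the stretch of 250 bases before the listed start, plus strand of chromosome 3, from RefSeq GRCm38.p6, with the interferon-stimulated response element (ISRE) core in capitals. The ISRE core was searched as GAAANNGAAA, which reads TTTCNNTTTC on the other strand.
Gbp5: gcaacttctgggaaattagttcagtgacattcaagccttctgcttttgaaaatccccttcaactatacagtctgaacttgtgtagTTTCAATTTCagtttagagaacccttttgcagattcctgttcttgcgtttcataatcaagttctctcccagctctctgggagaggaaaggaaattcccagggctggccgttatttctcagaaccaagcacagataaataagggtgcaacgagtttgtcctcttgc
Gbp3: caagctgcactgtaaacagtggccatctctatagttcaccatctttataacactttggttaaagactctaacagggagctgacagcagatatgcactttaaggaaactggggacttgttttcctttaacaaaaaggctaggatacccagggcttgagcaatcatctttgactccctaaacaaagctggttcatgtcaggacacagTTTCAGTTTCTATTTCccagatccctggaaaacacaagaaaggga
Gbp2: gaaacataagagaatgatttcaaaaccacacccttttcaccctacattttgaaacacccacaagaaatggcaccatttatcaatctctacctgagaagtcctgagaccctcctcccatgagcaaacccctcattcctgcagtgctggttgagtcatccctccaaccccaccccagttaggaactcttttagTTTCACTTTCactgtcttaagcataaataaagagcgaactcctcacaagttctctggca

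For the neighbouring Gbp genes only the 30 bases around the motif are shown.
Gbp7: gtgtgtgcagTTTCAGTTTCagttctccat
Gbp2b: gtacttctaaTTTCACTTTCttctttatca

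All 5 Gbp genes had the ISRE core upstream of a listed start, at 5 of their 6 starts. The second start listed for Gbp3 had none. Counted back from the start, the motif began at position -165 in Gbp5, -53 in Gbp7, -45 in Gbp3, -137 in Gbp2b and -59 in Gbp2. In Gbp3 a second copy began at -39 and overlapped the first. Among 32851 promoter stretches in the same table, 978 (2.98%) held the core on either strand. A match is a description of letters and not of a bound site.

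H4ac peaks covered 22.3 kb of the window in LPS-treated HDAC3 KO, 17.5 kb in LPS-treated wt, 2.02 kb in untreated HDAC3 KO and 3.62 kb in untreated wt. These lengths were 13.1, 10.3, 1.19 and 2.13% of the window in the same order of libraries. Both LPS-treated libraries were thus far above both untreated ones. The widest peak measured 7461 bp in LPS-treated HDAC3 KO, 4086 bp in LPS-treated wt, 738 bp in untreated HDAC3 KO and 876 bp in untreated wt. Scores are values that the authors' peak caller gave to single peaks. They depend on depth and on the input, so each score is set here only against its own list. The highest-scored peak of the window exceeded 99.1% of its list in LPS-treated HDAC3 KO and 99.2% in LPS-treated wt, while the untreated libraries reached 80.7% in HDAC3 KO and 84.0% in wt. In LPS-treated HDAC3 KO 370 peaks were tied at that peak's score, which lowers its percentile. By rank from the highest score, the peak was number 30 there and number 336 in LPS-treated wt. In bulk chromatin, fewer acetylated cells and less acetylation per cell cannot be told apart.

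**Figure D1:**
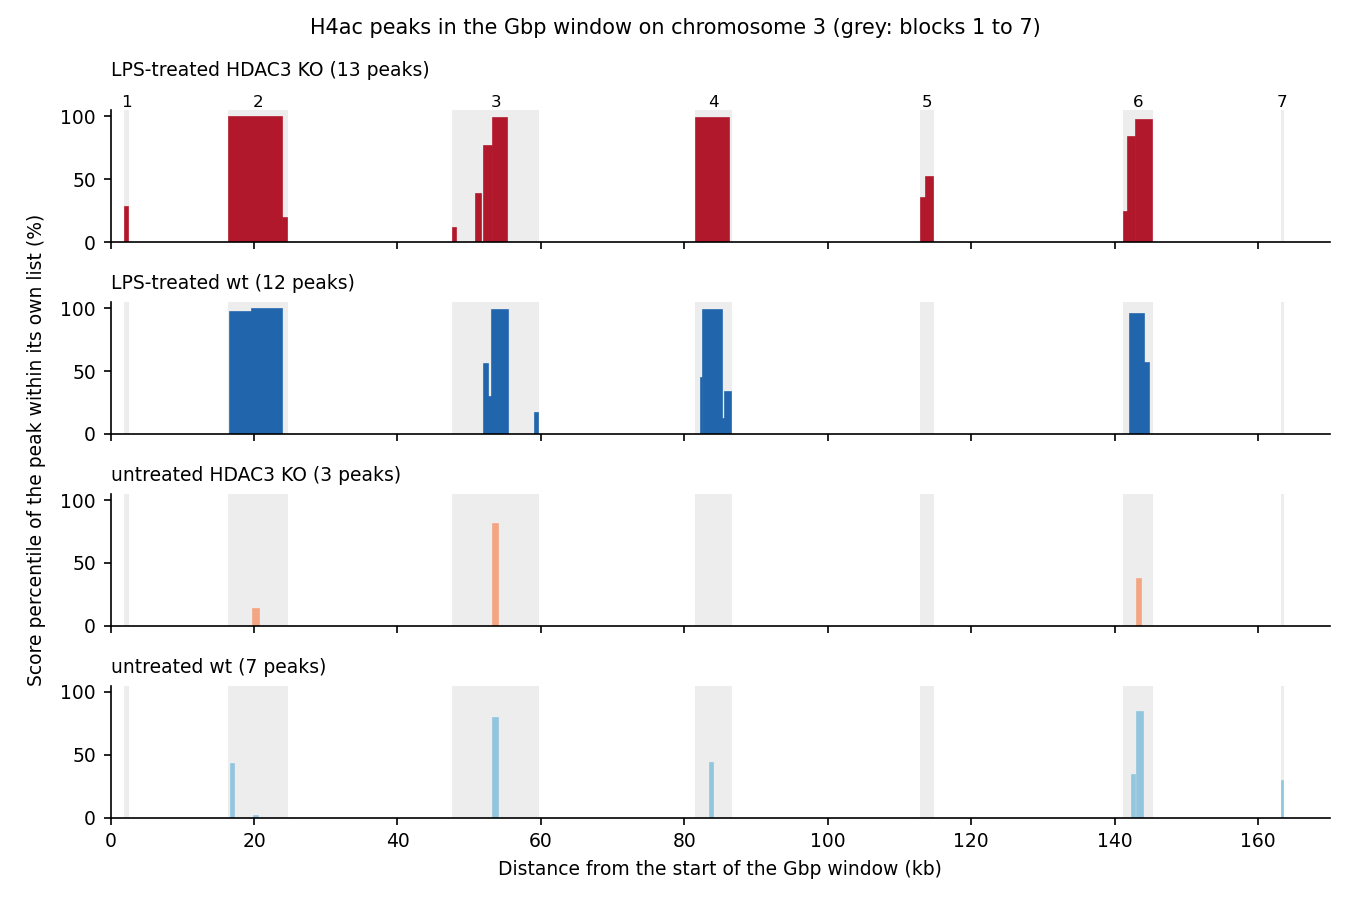
Each bar is 1 H4ac peak, placed by its distance from the start of the Gbp window (x axis, kb) and as high as its score percentile within its own list (y axis, %), in 4 panels of 1 library each; grey bands are blocks 1 to 7. The LPS-treated panels hold wide peaks near the top of their lists in blocks 2, 3, 4 and 6, while the untreated panels hold narrow peaks at or below the 84.0th percentile, and none in block 4 of untreated HDAC3 KO.

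Whole lists differed in size as well. They held 45589, 39550, 41956 and 48706 peaks over 50.4, 37.4, 36.4 and 35.4 Mb in LPS-treated HDAC3 KO, LPS-treated wt, untreated HDAC3 KO and untreated wt, and their median scores were 145, 141, 122 and 116 in that order. Read depth was unknown, and covered length cannot be told apart from depth or from how well the immunoprecipitation worked. Peaks of 1 list did not overlap each other.

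The 35 peaks fell into 7 blocks when peaks of any library within 5 kb of each other were joined, a distance chosen after the positions were seen. Blocks 2, 3, 4 and 6 carried most of the acetylation called in the window. The other blocks were small and each belonged to 1 library.

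Block 2 lay at chr3:142156462-142164612 and was the most widely covered. In LPS-treated HDAC3 KO it held an unbroken peak of 7461 bp (142156462 to 142163922) scored 3100.0, a value at which 370 peaks of that list were tied, and a small peak of 617 bp beside it. In LPS-treated wt nearly the same stretch was split by a gap of 57 bp into peaks of 3127 bp (142156600 to 142159726, score 1544) and 4086 bp (142159784 to 142163869, score 3021). The second of these stood at the 99.2th percentile of its list by score. In untreated HDAC3 KO there was a single peak of 738 bp at 142159900 to 142160637, scored 59.6, the 13.2th percentile. Untreated wt had a peak of 467 bp at 142156758 to 142157224 (score 98.4) and one of 538 bp at 142159977 to 142160514 (50.9). Covered length in the block was 8.08 kb in LPS-treated HDAC3 KO, 7.21 kb in LPS-treated wt, 0.738 kb in untreated HDAC3 KO and 1.00 kb in untreated wt. The outer ends of the block are those of peaks in LPS-treated HDAC3 KO, so its near-full cover in that library follows in part from how blocks were joined. LPS-treated wt covered 7213 of the 8151 bp, and the untreated libraries only short pieces inside them. The ratio of LPS-treated to untreated covered length was 10.9 in HDAC3 KO and 7.18 in wt.

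Block 3 lay at chr3:142187813-142199607 and had the strongest untreated peak in HDAC3 KO. Its main peak ran from 142193273 to 142195300 in LPS-treated HDAC3 KO (2028 bp, score 2426) and from 142193209 to 142195360 in LPS-treated wt (2152 bp, score 2248). The untreated peak at the same place ran from 142193303 to 142194023 in HDAC3 KO (721 bp, score 322) and from 142193363 to 142194065 in wt (703 bp, score 280). By rank these untreated peaks were not weak, at the 80.7th percentile in HDAC3 KO and the 79.0th in wt. The LPS-treated peak reached 30 bp beyond the untreated one on its left side and 1277 bp beyond it on its right side in HDAC3 KO. In wt these distances were 154 and 1295 bp. A further stretch to the left, at 142192062 to 142193177, had a peak of 1116 bp in LPS-treated HDAC3 KO and peaks of 463 and 453 bp in LPS-treated wt, and none in either untreated library. It ended 95 bp from the main peak in LPS-treated HDAC3 KO and 69 bp from it in LPS-treated wt, so with such gaps bridged the block extended to both sides of the untreated peak. LPS-treated HDAC3 KO also had peaks of 321 bp (142187813 to 142188133, score 59.2) and 653 bp (142190949 to 142191601, score 104). LPS-treated wt also had a peak of 476 bp (142199132 to 142199607, score 64.8). With these, the block summed to 4.12 kb in LPS-treated HDAC3 KO and 3.54 kb in LPS-treated wt. It summed to 0.721 kb in untreated HDAC3 KO and 0.703 kb in untreated wt.

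Block 4 lay at chr3:142221688-142226549 and was the block of the 4 that lacked a peak in untreated HDAC3 KO. LPS-treated HDAC3 KO had a single peak of 4563 bp (142221688 to 142226250, score 2605). LPS-treated wt had 4 peaks, led by one of 2685 bp (142222582 to 142225266, score 2531), with 389, 824 and 168 bp in the others. Untreated wt had a peak of 434 bp at 142223539 to 142223972, scored 100, at the 43.6th percentile of its list. Covered length was 4.56 kb in LPS-treated HDAC3 KO and 4.07 kb in LPS-treated wt, and it was 0 in untreated HDAC3 KO and 0.434 kb in untreated wt. No fold is given for HDAC3 KO because its untreated library had no peak there. A missing peak means that none passed the caller's threshold in that library.

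Block 6 lay at chr3:142281346-142285231. LPS-treated HDAC3 KO had peaks of 2282 bp (142282950 to 142285231, score 1556), 974 bp (score 556) and 455 bp (score 75.0). LPS-treated wt had a peak of 1972 bp (142282174 to 142284145, score 1291) and one of 679 bp (score 171). Untreated HDAC3 KO had a peak of 561 bp at 142283100 to 142283660 (score 90.2), and untreated wt had peaks of 436 bp (score 82.4) and 876 bp at 142283112 to 142283987 (score 339). The HDAC3 KO peak stood at the 37.1th percentile of its list and the wt peak of 876 bp at the 84.0th. Covered length was 3.71 kb in LPS-treated HDAC3 KO, 2.65 kb in LPS-treated wt, 0.561 kb in untreated HDAC3 KO and 1.31 kb in untreated wt. The ratio of LPS-treated to untreated covered length was 6.61 in HDAC3 KO and 2.02 in wt, the lowest wt ratio of the 4 blocks.

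**Figure D2:**
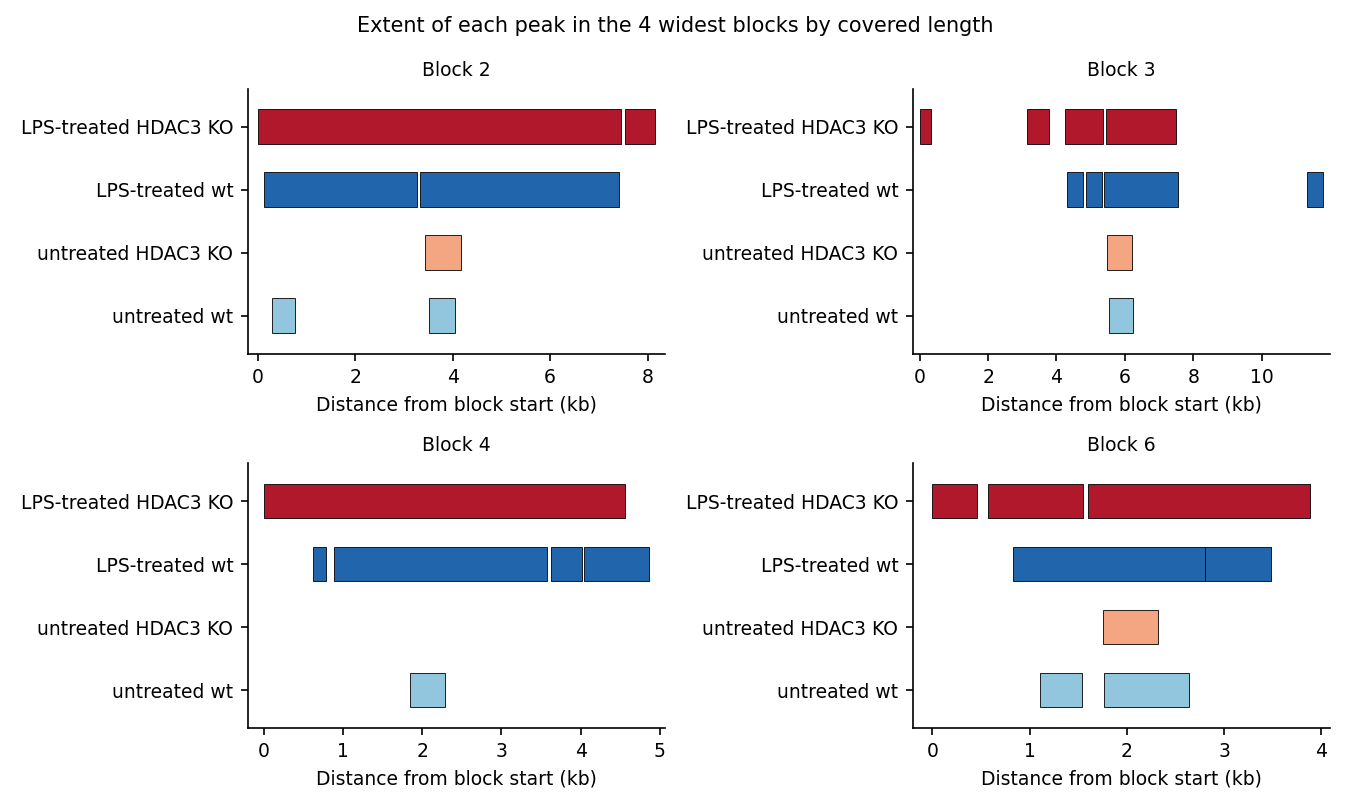
Each bar is 1 peak drawn to scale by its distance from the start of the block (x axis, kb) in blocks 2, 3, 4 and 6, with 1 row per library. In each block the untreated peaks lie within the stretch covered after LPS, and block 4 has no bar for untreated HDAC3 KO.

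Blocks 1, 5 and 7 were called in 1 library each. Block 1 was a peak of 372 bp at 142142053 to 142142424 in LPS-treated HDAC3 KO (score 81.2). Block 5 held peaks of 610 bp and 896 bp, between 142253047 and 142254630, also in LPS-treated HDAC3 KO (scores 95.4 and 153). Block 7 was a peak of 162 bp at 142303283 to 142303444 in untreated wt (score 74.8). Of these 4 peaks, the one of 896 bp alone scored above the median of its list.

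**Figure D3:**
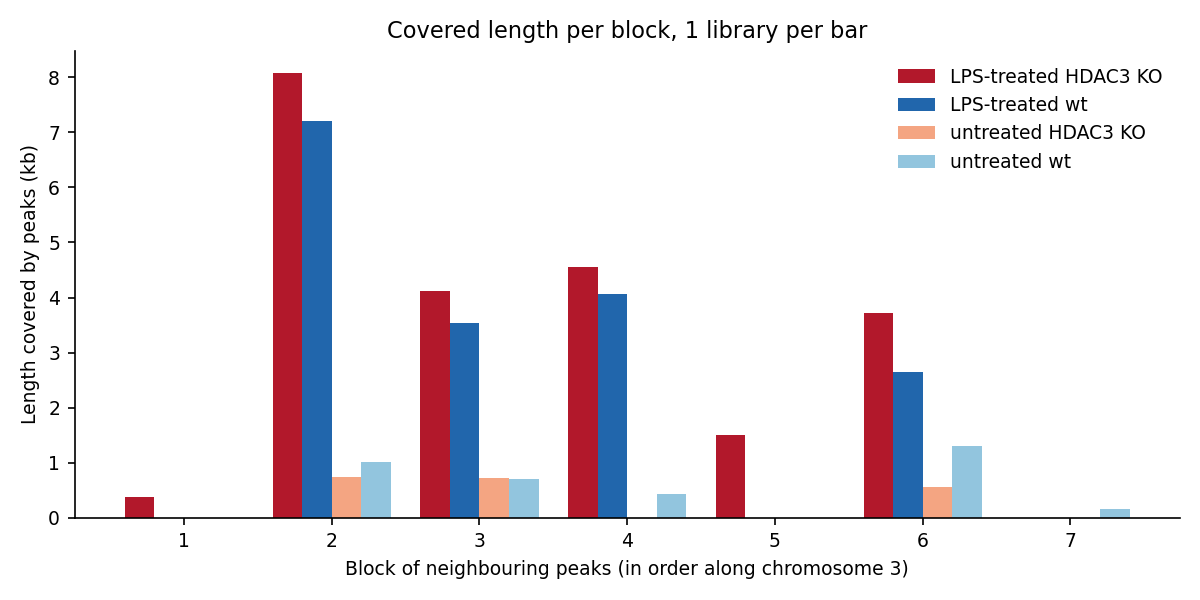
Bars give the length covered by H4ac peaks (y axis, kb) in each block (x axis), with 1 bar per library and no error bars because each group had 1 library. In blocks 2, 3, 4 and 6 both LPS-treated bars stand above both untreated bars, from 2.65 to 8.08 kb with LPS against 0 to 1.31 kb without.

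LPS against untreated cells was compared first. Covered length in the window differed by 20.3 kb in HDAC3 KO (22.3 kb with LPS, 2.02 kb without, a ratio of 11.1) and by 13.9 kb in wt (17.5 kb with LPS, 3.62 kb without, a ratio of 4.83). Over whole lists the same ratios were 1.38 in HDAC3 KO and 1.06 in wt. For comparison the genome was cut into tiles of 170 kb in register with the window, of which 7886 had a peak in any library. At least 5 kb more was covered after LPS in 13.3% of the tiles in HDAC3 KO and in 5.76% in wt. The Gbp window was past this size in both genotypes. In order of difference it was number 83 of the tiles in HDAC3 KO, where the median tile differed by 0.50 kb, and number 67 in wt, where the median was 0. A difference at least as large as that of the Gbp window in both genotypes was found in 51 tiles, the window itself included. These ranks describe the libraries and are not a test.

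**Figure D4:**
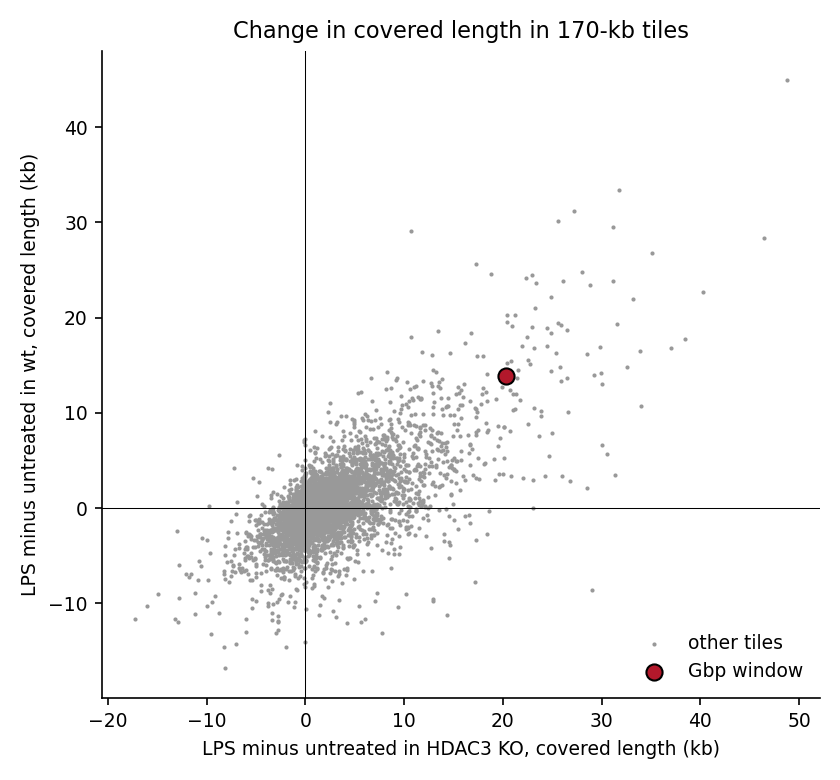
Each point is a tile of 170 kb, placed by its LPS minus untreated difference in covered length in HDAC3 KO (x axis, kb) and in wt (y axis, kb); the large point is the Gbp window. The window lies at 20.3 kb in HDAC3 KO and 13.9 kb in wt, toward the upper right and inside the spread of other tiles with large differences.

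The length covered with LPS and not without it was 20.3 kb in HDAC3 KO and 14.0 kb in wt. LPS-treated peaks that overlapped an untreated peak of their genotype held 9.75 kb (48.0%) of it in HDAC3 KO and 10.6 kb (75.4%) in wt. The other 10.6 kb in HDAC3 KO and 3.45 kb in wt lay in LPS-treated peaks with no untreated peak under them, and in HDAC3 KO this included the 4563 bp of block 4. All 3 peaks of untreated HDAC3 KO and 6 of the 7 peaks of untreated wt overlapped a peak of the LPS-treated library of their genotype, and the exception was block 7. Of the bases covered after LPS, 9.04% in HDAC3 KO and 19.8% in wt were also covered without treatment. Of the bases covered without treatment, 100.0% in HDAC3 KO and 95.5% in wt were also covered after LPS. The same shares over whole lists were not computed, so these peak counts and base shares have no background beside them. The LPS-treated peak was 2.81 to 10.1 times as wide as the untreated peak inside it in HDAC3 KO and 2.25 to 7.59 times as wide in wt. The upper end of each range came from block 2. There LPS-treated wt had a gap of 57 bp that the LPS-treated HDAC3 KO peak spanned. The ranges therefore depend on how peaks were split.

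Overlapping peaks of the 4 lists were merged, which gave 14 regions in the window and 62522 in all. With a peak after LPS and none without, there were 9 of the 14 in HDAC3 KO, against 26.4% of all regions, and 2 of the 14 in wt, against 16.2%. The wt count is a share (14.3%) near the background. With a peak in untreated cells alone, there were 0 in HDAC3 KO (15.2% of all regions) and 1 in wt (22.7%). Apart from block 4, the HDAC3 KO regions were 321 to 1116 bp wide. With peaks within 500 bp merged the regions called after LPS alone numbered 4 in HDAC3 KO and 1 in wt. With peaks at or above their list's median score, then the 20000 highest-scored, they numbered 5 and 4 in HDAC3 KO. In wt they numbered 3 and 3. No share over all regions was computed under these settings, so these counts have no background beside them.

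HDAC3 KO was then compared with wt. With LPS, the window had 4.87 kb more covered in HDAC3 KO (22.3 kb) than in wt (17.5 kb), a ratio of 1.28, while the ratio of the whole lists was 1.35. A difference of at least 5 kb in that direction was found in 11.9% of tiles, and the window was just below that size. Scaled by the total length each list covers, the difference turned to -0.951 kb. Its direction therefore depended on the scaling. In the window, 73.9% of the bases covered in LPS-treated HDAC3 KO were also covered in LPS-treated wt. Of those in LPS-treated wt, 94.6% were covered in LPS-treated HDAC3 KO. These shares were not computed over whole lists. Covered length was higher in LPS-treated HDAC3 KO in each of blocks 2, 3, 4 and 6, by 0.865, 0.574, 0.497 and 1.06 kb, as deposited.

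With LPS, 7 of the 14 regions had a peak in HDAC3 KO and none in wt, against 23.4% of all regions, and 1 had the reverse, against 11.6%. These 7 peaks were 321 to 896 bp wide and scored 59.2 to 153, and 6 of them were below the median score of their list. Among the 20000 highest-scored peaks of each list, 0 regions were called in LPS-treated HDAC3 KO alone. The share over all regions was not computed under this setting. Nor was the share below the median computed for all regions called in LPS-treated HDAC3 KO alone. The wide peaks of blocks 2, 3, 4 and 6 were present in both genotypes.

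Without treatment, peaks covered 2.02 kb of the window in HDAC3 KO and 3.62 kb in wt, a difference of -1.60 kb and a ratio of 0.559. The ratio of the whole untreated lists was 1.03. At least 5 kb less was covered in HDAC3 KO in 0.951% of tiles, and the window was not among them, though 89.4% of tiles had a higher difference or the same. Of the 14 regions, 0 had a peak in untreated HDAC3 KO alone, against 13.1% of all regions, and 2 had one in untreated wt alone, against 19.1%, namely block 4 and block 7. The difference in length was also found where both genotypes had a peak, with 0.561 kb in HDAC3 KO and 1.31 kb in wt in block 6, whereas in block 3 the lengths were 0.721 and 0.703 kb. All untreated peaks were few and narrow, so these lengths rest on 3 peaks in HDAC3 KO and 7 in wt.

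The change with LPS was 6.47 kb larger in HDAC3 KO (20.3 kb) than in wt (13.9 kb). Over all tiles the median of this difference was 0.679 kb, and 93.0% of tiles had a smaller value. Scaled by the total length each list covers, the change was 15.5 kb in HDAC3 KO and 14.6 kb in wt, and the difference between them was 0.916 kb. With 1 library per group this difference between genotypes was not tested.

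The surroundings of the cluster had few peaks in any library. In the 170 kb below the window, peaks covered 2.09 kb in LPS-treated HDAC3 KO, 1.15 kb in LPS-treated wt, 1.41 kb in untreated HDAC3 KO and 1.62 kb in untreated wt. In the 170 kb above it they covered 2.64, 3.01, 1.63 and 2.28 kb in the same order. The differences between LPS-treated and untreated libraries there were 0.68 kb (below) and 1.01 kb (above) in HDAC3 KO and -0.464 and 0.735 kb in wt, against 20.3 and 13.9 kb in the window. The nearest peak below the window ended 81.2 to 81.4 kb before its start in all 4 libraries. The nearest above began 53.0 to 53.1 kb beyond its end in LPS-treated HDAC3 KO, LPS-treated wt and untreated wt, and 118 kb beyond it in untreated HDAC3 KO. No peak crossed either edge.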

How the data were processed

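Acetylated histone H4 was measured by ChIP-seq with 1 library in each of 4 groups. Bowtie and mm9 were used, per the submitters' processing notes, and MACS called peaks for each library against an input, per the file headers; versions, settings, the input used and read depth are not given in the sources used here. Each deposited list gives a start, an end and a score per peak. The score is the authors' value, its scale is not stated, and its lowest value is near 50 in every list. Peaks overlapping the window by at least 1 bp were taken, covered bases were counted inside it, and peaks of different lists that overlapped were joined into regions with Python 3.11.15, numpy 2.4.6 and pandas 2.3.3. The members, comparisons and lists were chosen with earlier results of these data known. The text names the members, the Gbp genes between them and every merged region. Functions were tested on simulated lists. Alternatives were peaks at or above the median score, the 20000 highest-scored peaks, peaks within 500 bp merged, the window extended by 50 kb on each side, whole peaks, scaling by total covered length, and an overlap of 50% of the shorter peak. Promoters came from RefSeq tables on GRCm38.p6, and coordinates were not converted. The Hdac3 locus was not analysed here, so the genotype labels were not checked.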

Additional observations from a re-analysis of the deposited data

Results flagged for a closer look

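The difference between HDAC3 KO and wt had opposite signs with and without LPS, and this was not tested. For the whole window, covered length in HDAC3 KO minus wt was 4.87 kb with LPS and -1.60 kb without. In block 2 it was 0.865 kb with LPS and -0.267 kb without, in block 4 it was 0.497 and -0.434 kb, and in block 6 it was 1.06 and -0.751 kb. Block 3 had the same sign in both, at 0.574 kb with LPS and 0.018 kb without. The total covered length of the lists moved with the first of these, at 50.4 Mb in LPS-treated HDAC3 KO against 37.4 Mb in LPS-treated wt; after division by that total the window's difference was -0.951 kb with LPS and -1.87 kb without, both negative.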

How the results depend on the processing

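The difference between LPS-treated and untreated covered length kept its direction in both genotypes under every alternative run. The difference between HDAC3 KO and wt with LPS turned to -951 bp after division by total covered length, and the excess of the LPS change in HDAC3 KO above the wt change became 916 bp; the larger total of LPS-treated HDAC3 KO enters that scaling. Of 118 alternative values for 21 results, 86 stayed within 1.5 times the reported ones. These 86 include 21 values each from the extended window and from whole peaks, which could not change. No peak crossed an edge of the window, and none outside lay within 50 kb of it. Dropping low-scored peaks (at or above the median score, then the 20000 highest) left 721 bp covered in untreated HDAC3 KO and 1579 bp in untreated wt under both, a difference of -858 bp. Peaks were then 7 and 6 in LPS-treated HDAC3 KO, 7 and 7 in LPS-treated wt, 1 and 1 in untreated HDAC3 KO, and 2 and 2 in untreated wt. Regions called after LPS alone were 5 and 4 in HDAC3 KO and 3 and 3 in wt. Those called in untreated wt alone against LPS-treated wt were 0 and 0. Those in LPS-treated HDAC3 KO alone against wt were 1 and 0, and those in LPS-treated wt alone 0 and 0. Regions in untreated wt alone against untreated HDAC3 KO were 1 and 1. With the 20000 highest-scored peaks the excess of the LPS change in HDAC3 KO was 4118 bp. With peaks within 500 bp merged, LPS-treated HDAC3 KO had 7 peaks and LPS-treated wt 5. Regions called after LPS alone were then 4 in HDAC3 KO and 1 in wt, and regions in LPS-treated HDAC3 KO alone against wt were 3. For none of these alternative region counts was the share over all regions computed. The excess in HDAC3 KO was first computed after the data were seen. No paired analysis was possible because each group had 1 library and no test was made. Read depth is unknown and limits every statement about a missing peak.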
